A study of Sus scrofa with 9 samples.

Results

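The 42 genes described here carry the symbols of regulators of pre-mRNA splicing, by which they were chosen: all SRSF and HNRNP genes of the count table, together with TRA2A, TRA2B, SRRM1, SRRM2, PNISR, SRPK1, SRPK2 and CLK1 to CLK4, out of 27339 genes. They were measured by RNA sequencing of poly(A) RNA in 9 libraries of primary Gottingen pig myoblasts at passages 7 to 9, grown in F-10 medium with fetal bovine serum and chicken embryo extract. Each of 3 groups of 3 libraries carried a doxycycline-inducible transgene: human DUX4, pig DUXC, or GFP as the control. All groups, the GFP control included, received 1 µg/mL doxycycline for 16 h before harvest, so that the drug and the inducible system are common to all comparisons. DUX4 encodes a transcription factor with paired homeodomains that is active in early embryos and whose misexpression in muscle causes facioscapulohumeral dystrophy, and DUXC is the double homeobox gene of the pig. The sources used here do not give the promoter that drives the transgenes or the share of cells that responded.

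SR proteins carry RNA recognition motifs and a domain rich in arginine and serine repeats. They bind exonic enhancers and recruit the spliceosome to nearby splice sites, and their activity and location depend on phosphorylation by SRPK kinases in the cytoplasm and CLK kinases in the nucleus. The hnRNP proteins coat nascent transcripts and often act in the opposite way, by silencing exons. Many genes of both families hold conserved "poison" exons whose inclusion sends the transcript to nonsense-mediated decay, a form of self-limitation that counts per gene do not resolve. Nothing here measures splicing, protein amount or phosphorylation.

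All 42 genes passed the filter on low counts, with 163 to 38141 reads per library, and were tested with 15956 genes in all. They fall into 11 SR proteins, 5 SR-like regulators (TRA2A, TRA2B, SRRM1, SRRM2 and PNISR), 6 SR protein kinases, 8 hnRNPs of the A/B, C and D families and 12 other hnRNPs. RefSeq annotates 1 of them, HNRNPU, as a long noncoding RNA in the pig, so that its row does not measure a coding transcript by that annotation, and the counts of genes below include it. Levels are normalised read counts (CPM, reads of a gene per 1000000 reads of the scaled library), and values in series are those of libraries 1, 2 and 3 of a group. A level with a ± sign is the mean and SD of the 3 libraries of a group. Differences are fitted log2 fold changes with their standard error after the ± sign, from edgeR's two-sided quasi-likelihood test with Benjamini-Hochberg adjustment over all genes tested, and genes passed at an adjusted p under 0.05. Nothing in the labels says that libraries of 1 group were grown as separate cultures, and p-values then reflect the spread among these samples alone, which may be technical. CPM are not scaled to transcript length, and levels are compared between groups and not between genes.

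Total counts lay between 36580573 and 44420895 per library. The labelled cell type was checked on its markers in the GFP libraries: 0 of 7 myoblast and satellite cell genes reached 10 CPM, with a summed level of 13.7 to 14.7 CPM. All 7 fibroblast and matrix genes were above 10 CPM, with a summed level of 49859.7 to 52984 CPM. MYOD1, the defining factor of myoblasts, had 1 count over the 3 GFP libraries and MYOG had 6. Of the endothelial and immune markers, 0 of 3 in each list reached 10 CPM with GFP, and the adipocyte markers ADIPOQ, PLIN1 and FABP4 had no count there.

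The comparison of DUX4 with GFP asks how these genes respond to the human factor. Most rose by small amounts: 29 of 42 (69.0%) were higher with DUX4 and 5 were lower, where 32.9% of all tested genes were higher, 31.9% were lower and 64.8% changed in either direction. The median log2 fold change was 0.19, against 0.00 over all genes. The extremes were SRSF2, at 2.09-fold the GFP level, and PNISR, with a log2 fold change of -0.21. Only SRSF2, SRSF7 and SRSF1 rose at least 1.5-fold, a share of 7.14% against 15.1% of all tested genes, and none fell as far, against 10.5%. Because these are bulk samples, a change in the share of responding cells and a change in RNA per cell cannot be told apart.

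With DUXC, the pig's own factor, 22 of 42 (52.4%) were higher than with GFP and 17 (40.5%) were lower, against 40.2% and 42.3% of all tested genes, 82.5% of which changed. The median was 0.10, against -0.03 over all genes, and the range ran from -0.80 for HNRNPA3 to 2.20 for SRSF2. At least 1.5-fold higher were 11 genes (26.2%, against 28.0% of all tested genes): SRSF2, SRSF3, SRSF7, CLK1, SRRM1, SRSF4, HNRNPH3, HNRNPA1, CLK4, TRA2B and SRSF11. HNRNPA3 alone fell at least 1.5-fold (2.38%, against 20.9%).

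The direct comparison of DUX4 with DUXC tests where the 2 factors differed. The level with DUX4 was higher for 19 of 42 genes (45.2%) and lower for 20 (47.6%), against 40.8% and 41.6% of all tested genes, with 82.4% changed in either direction. At least 1.5-fold higher with DUX4 were 8 genes (19.0%, against 21.4% of all tested genes) and at least 1.5-fold lower were 9 (21.4%, against 28.6%). By class, of 22 SR-class genes (SR proteins, SR-like regulators and kinases) 5 were higher with DUX4 and 15 lower, with a median of -0.47, and of 20 hnRNP genes 14 were higher and 5 lower, with a median of 0.39. The comparisons with GFP share the same 3 control libraries, and each is given with its own values below. No test of the classes against each other or against other genes was made.

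**Figure D1:**
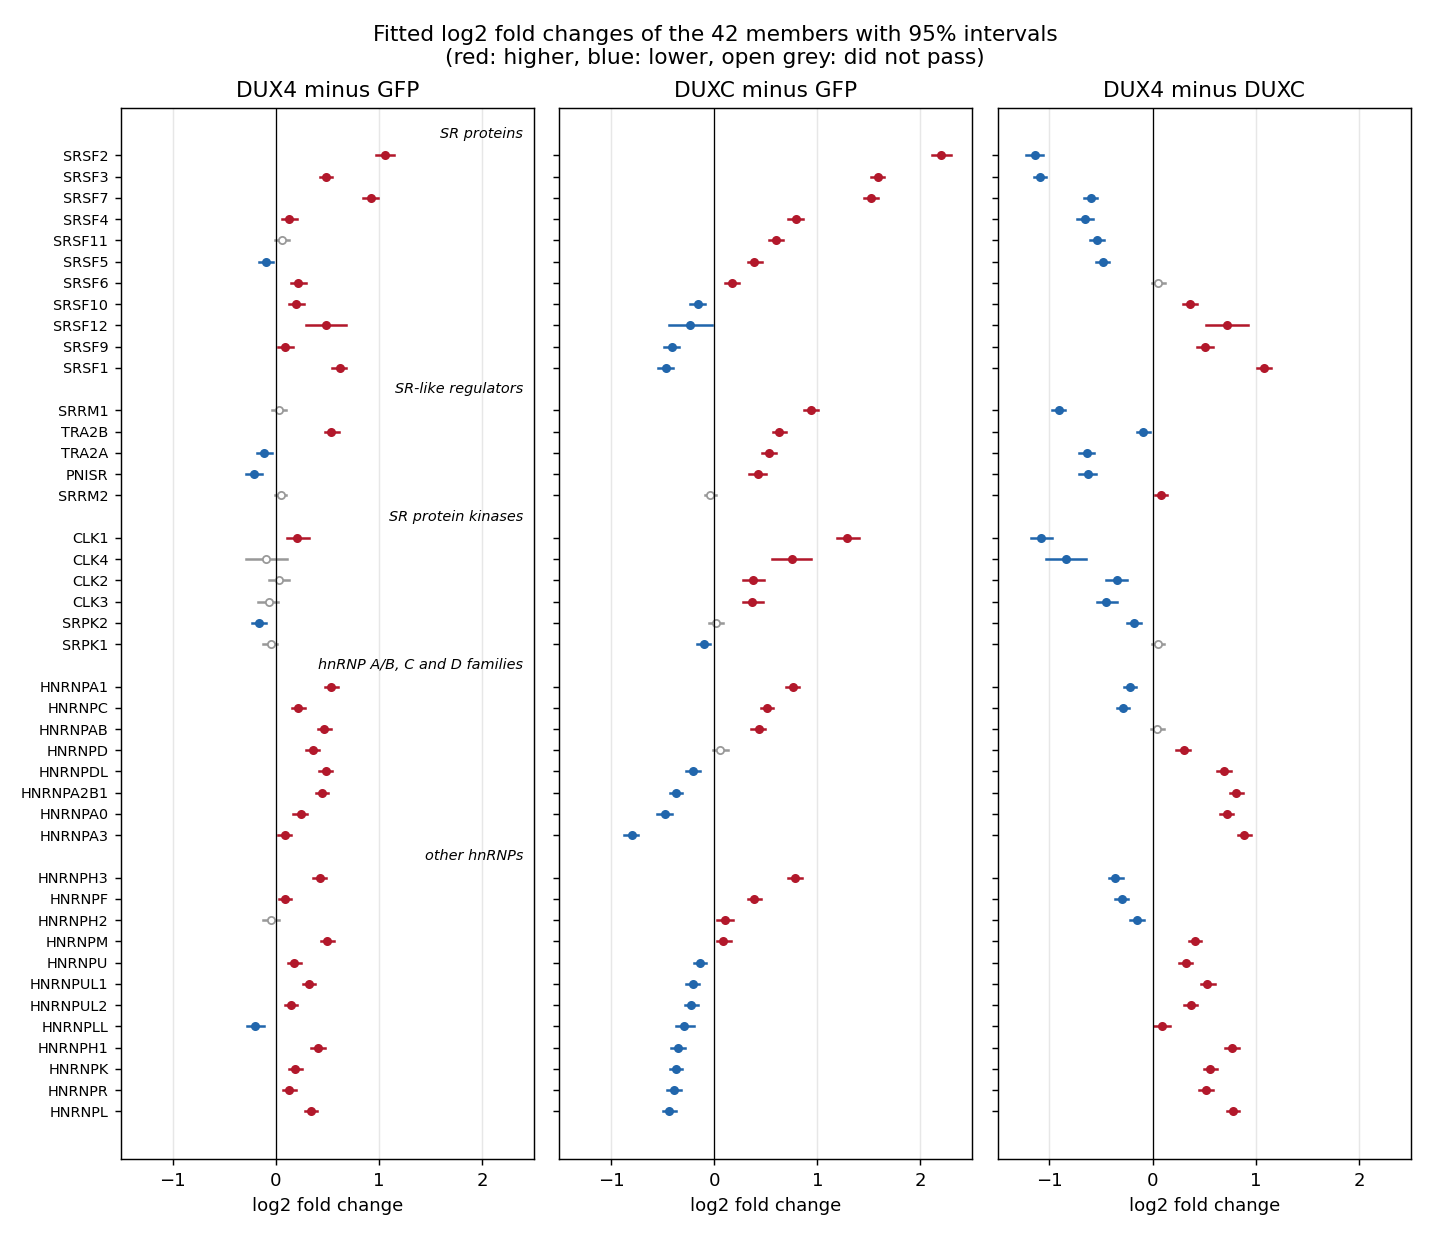
Fitted log2 fold changes (x axis) of the 42 genes (rows, by class and by their change with DUXC) for DUX4 minus GFP, DUXC minus GFP and DUX4 minus DUXC. Points are estimates and lines 95% intervals from the fit over 9 libraries, red for higher, blue for lower and open grey for genes that did not pass. With DUX4 most points lie just right of 0, and with DUXC they spread from -0.80 to 2.20.

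The position of each group among the 9 libraries was also counted, without a model. The 3 DUXC libraries lay above or below all 6 others for 35 of 42 genes (83.3%), above for 19 (45.2%, against 33.3% of all tested genes) and below for 16 (38.1%, against 32.2%). The 3 DUX4 libraries were the highest for 17 genes (40.5%, against 19.7%), 13 of them hnRNPs such as HNRNPA2B1, HNRNPH1 and HNRNPL, and the lowest for 4 (HNRNPH2, PNISR, SRPK2 and SRSF5; 9.52%, against 16.3%). Taken in pairs, there was no overlap of libraries for 35 genes between DUX4 and GFP (against 67.0% of all tested genes), for 39 between DUXC and GFP (83.5%) and for 39 between DUX4 and DUXC (83.0%). The GFP libraries were the lowest for 13 genes (31.0%, against 17.3%) and the highest for HNRNPLL and SRPK1 (4.76%, against 20.2%).

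Among the SR proteins, the largest rises with DUX4 were those of SRSF2, SRSF7 and SRSF1 and the largest with DUXC those of SRSF2, SRSF3 and SRSF7, and SRSF1 went in opposite directions with the 2 factors. With DUX4 9 of 11 SR proteins (81.8%) rose and SRSF5 (9.09%) fell, against 32.9% and 31.9% of all tested genes, and the median log2 fold change was 0.22. With DUXC 7 of 11 (63.6%) rose and 4 (36.4%) fell, against 40.2% and 42.3% of all tested genes, with a median of 0.39. The summed level of the 11 genes was 1023, 1039 and 996 CPM with GFP, 1341, 1333 and 1291 CPM with DUX4 and 1664, 1708 and 1725 CPM with DUXC, so that the 3 groups did not overlap.

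SRSF2, also known as SC35 and long used as a marker of nuclear speckles, lies on chromosome 12 (4800578 to 4803767, Sscrofa11.1). Its levels were 44.9, 45.3 and 44.7 CPM with GFP, 97.0, 99.0 and 85.6 CPM with DUX4, and 197, 208 and 217 CPM with DUXC. The groups were fully separated, with DUXC highest and GFP lowest. SRSF2 rose with DUX4 (1.06 ± 0.0450, adjusted p = 1.01e-18 in edgeR) and with DUXC (2.20 ± 0.0443, adjusted p = 1.80e-27), to 4.61-fold the GFP level, and was lower with DUX4 than with DUXC (-1.14 ± 0.0414, adjusted p = 6.93e-21). Its span overlaps that of METTL23 by 1364 bp, and METTL23 stood at 17.8 ± 0.571, 21.2 ± 0.184 and 17.5 ± 0.739 CPM with GFP, DUX4 and DUXC.

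SRSF3, the smallest SR protein and an adaptor for mRNA export, lies on chromosome 7 (32289464 to 32298652). Levels were 144, 145 and 147 CPM with GFP, 205, 206 and 201 CPM with DUX4, and 429, 444 and 434 CPM with DUXC. All DUXC libraries lay far above the rest, and the DUX4 libraries lay between them and the controls. The log2 fold change was 0.49 ± 0.0303 with DUX4 (adjusted p = 1.76e-19 in edgeR) and 1.59 ± 0.0304 with DUXC (adjusted p = 1.33e-40), a 3.00-fold rise, and -1.09 ± 0.0298 for DUX4 against DUXC (adjusted p = 2.97e-34). A noncoding gene, LOC102161912, overlaps its span by 2576 bp and had 4.78 ± 0.397, 4.77 ± 0.302 and 7.03 ± 0.791 CPM with GFP, DUX4 and DUXC.

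SRSF7, the close relative of SRSF3 that adds a zinc knuckle and likewise serves in export, lies on chromosome 3 (101599429 to 101608786) and overlaps no other gene. It had 71.5, 73.6 and 73.4 CPM with GFP, 136, 144 and 133 CPM with DUX4, and 202, 214 and 211 CPM with DUXC. The order of the groups was that of SRSF3, without overlap. The rise was 0.92 ± 0.0345 with DUX4 (adjusted p = 5.33e-28 in edgeR) and 1.52 ± 0.0343 with DUXC (adjusted p = 1.23e-37), and the log2 fold change of DUX4 against DUXC was -0.60 ± 0.0329 (adjusted p = 5.35e-22).

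SRSF1, the founding SR protein, which promotes exon inclusion and is a proto-oncogene, lies on chromosome 12 (34278363 to 34282164). In the libraries it stood at 160.5, 163 and 156 CPM with GFP, 252, 244 and 238 CPM with DUX4, and 110.4, 115 and 122 CPM with DUXC. The DUX4 libraries were the highest of the 9 and the DUXC libraries the lowest. SRSF1 rose with DUX4 (0.62 ± 0.0333, adjusted p = 1.10e-21 in edgeR), to 1.53-fold, and fell with DUXC (-0.47 ± 0.0341, adjusted p = 3.12e-17). The difference between the factors, 1.08 ± 0.0338 (adjusted p = 9.09e-32), was the largest in favour of DUX4 among the 42 genes. LOC110256034, a noncoding gene that overlaps SRSF1 by 757 bp, moved otherwise, at 5.76 ± 0.617, 7.11 ± 0.679 and 16.1 ± 0.773 CPM with GFP, DUX4 and DUXC.

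**Figure D2:**
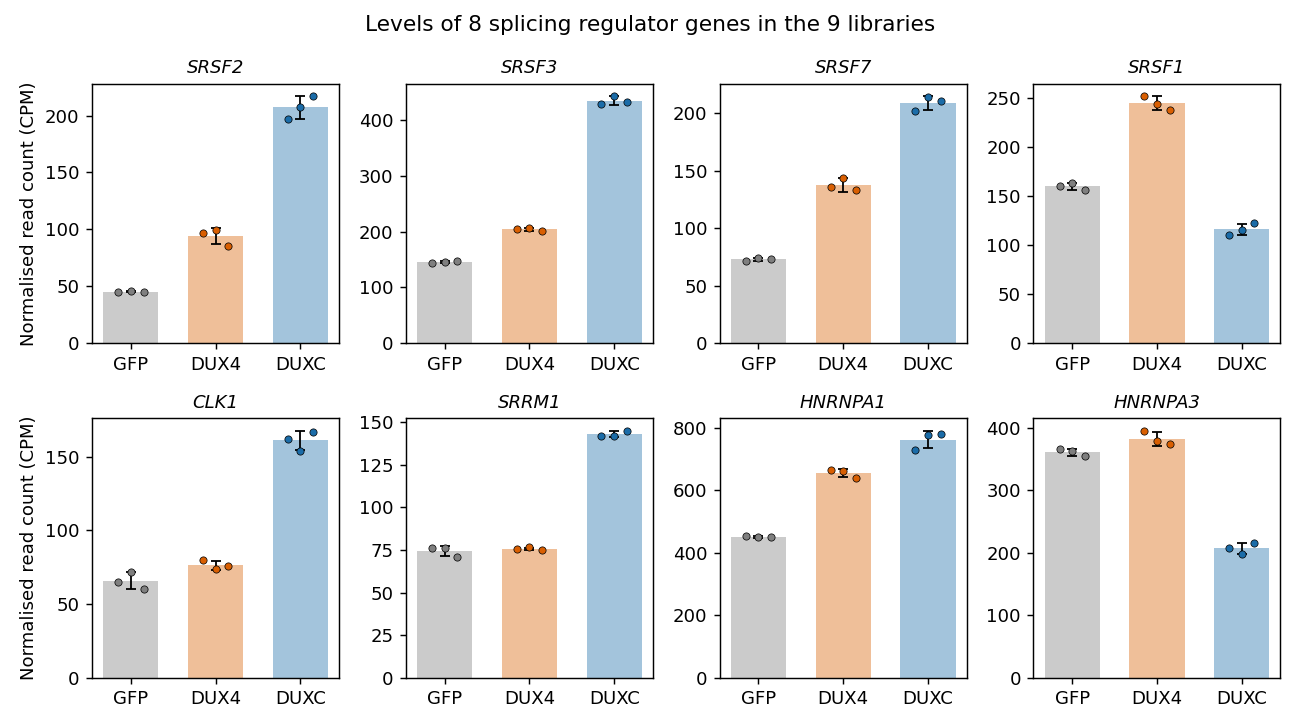
Normalised read counts (CPM, y axes from 0) of 8 genes in the 9 libraries, as points, with bars and whiskers for mean and SD of n = 3. SRSF2, SRSF3 and SRSF7 climb from GFP to DUX4 to DUXC, SRSF1 is highest with DUX4 (238 to 252) and lowest with DUXC (110.4 to 122), CLK1 and SRRM1 stand out with DUXC, and HNRNPA1 and HNRNPA3 differ in direction with DUXC.

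SRSF4, a larger SR protein with a pair of RNA recognition motifs, had 54.1, 53.8 and 53.7 CPM with GFP, 58.7, 60.4 and 58.2 CPM with DUX4, and 89.4, 95.6 and 94.5 CPM with DUXC. It rose slightly with DUX4 (0.13 ± 0.0370, adjusted p = 0.00143 in edgeR) and more with DUXC (0.79 ± 0.0360, adjusted p = 4.52e-25), with a difference of -0.66 ± 0.0355 between DUX4 and DUXC (adjusted p = 4.16e-22). Its relatives SRSF5 and SRSF6 moved less with DUXC, by 0.39 ± 0.0319 and 0.17 ± 0.0347. With DUX4 SRSF6 rose more than SRSF4, by 0.22 ± 0.0346. SRSF5 stood at 114 ± 3.16 CPM with GFP, 107 ± 0.992 under DUX4 and 149 ± 1.20 under DUXC, and SRSF6 at 107 ± 3.81, 125 ± 5.25 and 120.0 ± 2.31 CPM. Between DUX4 and DUXC, SRSF6 did not pass (0.05 ± 0.0344, 95% interval -0.01 to 0.12, adjusted p = 0.141), which bounds the difference without showing that the factors act alike, and it passed without DUX4 replicate 3 (0.0128) and with no filter on low counts (0.00839). The fall of SRSF5 with DUX4 (-0.09 ± 0.0323, adjusted p = 0.0127, 0.0111 to 0.104 across alternatives) did not hold without DUX4 replicate 2 (adjusted p = 0.0506), without GFP replicate 2 (0.104) and with 3 other scalings or tools.

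SRSF9, the closest relative of SRSF1, resembled it with DUXC, where it fell from 65.1 ± 1.58 to 48.9 ± 0.522 CPM (-0.41 ± 0.0383, adjusted p = 9.26e-14 in edgeR). With DUX4 it stood at 69.5 ± 3.20 CPM, in libraries that overlap the controls, and its call (0.09 ± 0.0370, adjusted p = 0.0234) was lost without DUX4 replicate 2 (0.183), GFP replicate 2 (0.105) or GFP replicate 3 (0.0532), with adjusted p-values of 0.00337 to 0.183 across alternatives. SRSF10, which turns into a splicing repressor when it is dephosphorylated, was 108 ± 5.22 CPM with GFP, 124 ± 4.35 under DUX4 and 96.4 ± 2.10 under DUXC, and its fall with DUXC was lost with library size alone (adjusted p = 0.406). SRSF11, an SR-related protein of the spliceosome, reached 218 ± 8.03 CPM with DUXC from 144 ± 8.12 and stood at 150.0 ± 4.46 with DUX4, where it did not pass (adjusted p = 0.145). SRSF11 passed without GFP replicate 2 (adjusted p = 0.0249) and with DESeq2 size factors (0.0371).

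SRSF12, a scarce relative of SRSF10, had 6.19, 5.52 and 4.62 CPM with GFP, 8.11, 7.78 and 7.05 CPM with DUX4, and 4.21, 5.04 and 4.66 CPM with DUXC. The DUX4 libraries were the highest of the 9, while the DUXC and GFP libraries overlapped. It rose with DUX4 (0.49 ± 0.0967, adjusted p = 1.93e-05 in edgeR). Its call with DUXC (-0.23 ± 0.106, adjusted p = 0.0414, 0.00413 to 0.350 across alternatives) did not hold without DUXC replicate 1 (0.176) or 3 (0.0679), without GFP replicate 1 (0.285) or 2 (0.0694) and under 5 of the 7 other alternatives.

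Of the 5 SR-like regulators 4 (80.0%) rose and none fell with DUXC, against 40.2% and 42.3% of all tested genes, and with DUX4 1 was higher and 2 were lower, against 32.9% and 31.9%. SRRM1, a coactivator that bridges SR proteins and the spliceosome, had 76.0, 76.4 and 70.7 CPM with GFP, 75.4, 76.5 and 75.2 CPM with DUX4, and 142, 142 and 145 CPM with DUXC. Levels with DUX4 and GFP overlapped, and all DUXC libraries were above them. SRRM1 rose with DUXC (0.94 ± 0.0342, adjusted p = 4.93e-29 in edgeR) and did not pass with DUX4 (0.03 ± 0.0351, 95% interval -0.04 to 0.10, adjusted p = 0.534). Its larger partner SRRM2, the scaffold of nuclear speckles, stood at 387 ± 3.77, 399.6 ± 11.3 and 378 ± 2.49 CPM with GFP, DUX4 and DUXC and did not pass against GFP with either factor. Its calls depended on the scaling: with library size alone it passed as higher with both (adjusted p = 0.0332 with DUX4 and 0.00490 with DUXC), and with no filter on low counts as lower with DUXC (0.0173).

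TRA2B, a homologue of the fly sex-determination factor transformer-2 that activates exons through purine-rich enhancers, had 129.8, 129 and 128 CPM with GFP, 188, 193 and 182 CPM with DUX4, and 196, 203 and 202 CPM with DUXC. Both factors gave levels above all controls. The rise was 0.54 ± 0.0316 with DUX4 (adjusted p = 1.89e-20 in edgeR) and 0.63 ± 0.0316 with DUXC (adjusted p = 1.71e-23). The difference between them (-0.09 ± 0.0310, adjusted p = 0.00694, 3.88e-07 to 0.185 across alternatives) did not hold without DUX4 replicate 3 (0.0983) and with no filter on low counts (0.185).

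TRA2A, the paralogue of TRA2B, differed from it with DUX4. It had 95.2, 96.9 and 87.8 CPM with GFP, 87.6, 83.9 and 88.0 CPM with DUX4, and 133, 134 and 138 CPM with DUXC. The DUXC libraries were the highest, and DUX4 and GFP overlapped. TRA2A rose with DUXC (0.53 ± 0.0351, adjusted p = 8.58e-19 in edgeR). Its small fall with DUX4 (-0.11 ± 0.0358, adjusted p = 0.00676, 0.000430 to 0.0725 across alternatives) did not hold without DUX4 replicate 2 (0.0567), without GFP replicate 2 (0.0725) and with DESeq2 (0.0648).

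PNISR, a nuclear protein rich in serine and arginine, had 90.1, 95.6 and 81.4 CPM with GFP, 79.2, 76.9 and 75.2 CPM with DUX4, and 119, 117 and 121 CPM with DUXC. It fell with DUX4 (-0.21 ± 0.0404, adjusted p = 2.86e-05 in edgeR) and rose with DUXC (0.42 ± 0.0395, adjusted p = 4.62e-12), and each group of libraries was clear of the others. The difference between the factors was -0.63 ± 0.0398 (adjusted p = 6.95e-17).

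Of the kinases that phosphorylate SR proteins, all 4 CLK genes rose with DUXC while SRPK1 fell by 0.10 and SRPK2 did not pass (66.7% higher and 16.7% lower, against 40.2% and 42.3% of all tested genes). CLK1, a dual-specificity kinase of the nucleus whose own transcript is known to be held back by intron retention, had 65.2, 71.8 and 60.1 CPM with GFP, 79.7, 73.4 and 75.5 CPM with DUX4, and 162, 154 and 167 CPM with DUXC. All DUXC libraries were more than 2-fold above the highest control. CLK1 rose with DUXC (1.29 ± 0.0496, adjusted p = 2.82e-15 in edgeR), to 2.45-fold, and by less with DUX4 (0.21 ± 0.0510, adjusted p = 0.00115), and the difference between the factors was -1.08 ± 0.0489 (adjusted p = 4.65e-14).

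CLK4, its closest relative, stood at 32.0, 33.4 and 26.9 CPM with GFP, 31.4, 26.1 and 29.3 CPM with DUX4, and 52.2, 48.9 and 54.2 CPM with DUXC. It rose with DUXC (0.75 ± 0.0853, adjusted p = 1.14e-05 in edgeR), and did not pass with DUX4 (-0.09 ± 0.0900, adjusted p = 0.415), although it was called lower there without GFP replicate 3 (0.0105). The difference of DUX4 from DUXC itself passed (-0.84 ± 0.0856, adjusted p = 4.63e-06).

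CLK2 had 24.0, 23.7 and 23.8 CPM with GFP, 24.5, 24.4 and 24.0 CPM with DUX4, and 32.0, 31.2 and 29.7 CPM with DUXC. CLK3 had 35.4, 32.7 and 35.2 CPM with GFP, 31.3, 31.9 and 35.0 CPM with DUX4, and 44.0, 46.4 and 43.4 CPM with DUXC. In both genes the DUXC libraries were above the other 6, by 0.38 ± 0.0487 and 0.37 ± 0.0463 against GFP (adjusted p = 1.52e-09 and 5.04e-10 in edgeR). With DUX4 neither passed (adjusted p = 0.632 and 0.177), although CLK3 was called lower without DUX4 replicate 3 (0.0356). CLK3 shares 69 bp of its span with EDC3, which went from 40.8 ± 0.798 CPM with GFP to 98.2 ± 4.79 CPM with DUXC, and CLK2 shares 1886 bp with HCN3, at 1.67 ± 0.167 and 2.14 ± 0.309 CPM.

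SRPK2, a cytoplasmic kinase that drives the nuclear import of SR proteins, had 68.1, 67.6 and 70.4 CPM with GFP, 62.1, 60.9 and 61.7 CPM with DUX4, and 71.0, 68.7 and 69.6 CPM with DUXC. It fell with DUX4 (-0.16 ± 0.0354, adjusted p = 0.000121 in edgeR), without overlap, and did not pass with DUXC (0.02 ± 0.0351, 95% interval -0.05 to 0.09, adjusted p = 0.566), although it passed as higher there with DESeq2 size factors (0.00887), library size alone (0.000227), DESeq2 (0.0408) and only the 2 groups compared (0.0455). SRPK1 stood at 121 ± 1.96, 117 ± 1.19 and 113 ± 1.84 CPM with GFP, DUX4 and DUXC. Its fall with DUXC (-0.10 ± 0.0320, adjusted p = 0.00393, 4.76e-05 to 0.510 across alternatives) did not hold with DESeq2 size factors, with DESeq2 and with only the 2 groups compared, and turned to 0.02 with library size alone.

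**Figure D3:**
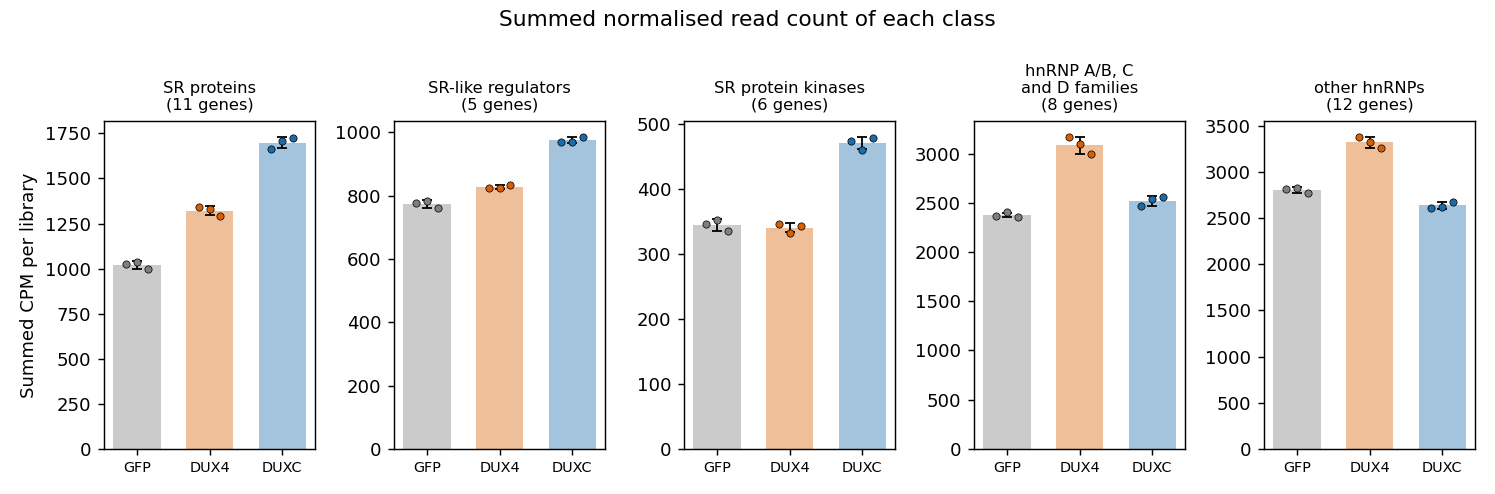
Summed normalised read count (CPM, y axes from 0) of the genes of each class in the 9 libraries, as points, with bars and whiskers for mean and SD of n = 3. SR proteins climb from 1019 ± 21.9 with GFP to 1699 ± 31.5 with DUXC, the kinase sum is highest with DUXC, and both hnRNP classes are highest with DUX4. Sums weigh abundant and long transcripts most.

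Most hnRNP genes rose with DUX4. There 18 of 20 (90.0%) were higher and HNRNPLL was lower, against 32.9% and 31.9% of all tested genes, at a median log2 difference of 0.28, and none reached 1.5-fold. With DUXC 7 (35.0%) were higher and 12 (60.0%) lower, against 40.2% and 42.3% of all tested genes, with a median of -0.21. The summed level of the 20 genes was 5180.0 ± 51.2 CPM with GFP, 6405 ± 144 under DUX4 and 5160.0 ± 82.2 under DUXC, so that in this sum only the DUX4 libraries stood apart. By class, the DUXC libraries differed from GFP in opposite directions, without overlap. The A/B, C and D families summed to 2376 ± 23.7 CPM with GFP and 2522 ± 50.9 under DUXC. The other hnRNPs summed to 2804 ± 29.4 and 2638 ± 35.1 CPM. Several hnRNP genes have processed copies elsewhere in mammalian genomes, and the sources used here do not give how reads shared by copies were counted.

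HNRNPA1, which binds exonic silencers and antagonises SR proteins, lies on chromosome 5 (19485033 to 19491418). It had 454, 451 and 449 CPM with GFP, 666, 661 and 639 CPM with DUX4, and 730.0, 778 and 779.6 CPM with DUXC. The groups were separated in the order GFP, DUX4, DUXC. The rise was 0.54 ± 0.0298 with DUX4 (adjusted p = 3.20e-21 in edgeR) and 0.76 ± 0.0299 with DUXC (adjusted p = 1.56e-27).

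HNRNPA2B1, of the same family and a reader of RNA modification, lies on chromosome 18 (46205164 to 46215861) and had 631, 654 and 641 CPM with GFP, 901, 875 and 846 CPM with DUX4, and 487, 492 and 512 CPM with DUXC. Unlike HNRNPA1 it was lowest with DUXC. It rose with DUX4 (0.45 ± 0.0299, adjusted p = 3.68e-18 in edgeR) and fell with DUXC (-0.37 ± 0.0300, adjusted p = 1.33e-15), and the 2 factors differed by 0.81 ± 0.0301 (adjusted p = 8.32e-29). NFE2L3, whose span overlaps it by 2470 bp, had 0.465 ± 0.243, 0.582 ± 0.114 and 1.46 ± 0.112 CPM with GFP, DUX4 and DUXC.

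HNRNPA3, another member of the A/B family, lies on chromosome 15 (82958329 to 82968740). Its levels were 365, 363 and 354 CPM with GFP, 395, 378 and 374 CPM with DUX4, and 207, 198 and 215 CPM with DUXC. The DUXC libraries were far below the other 6. HNRNPA3 fell with DUXC (-0.80 ± 0.0319, adjusted p = 1.80e-27 in edgeR), to 0.573-fold the GFP level. Its small rise with DUX4 (0.09 ± 0.0314, adjusted p = 0.0153, 0.00190 to 0.0854 across alternatives) did not hold without DUX4 replicate 1 (0.0854) or GFP replicate 3 (0.0797). NFE2L2, which overlaps it by 1256 bp, had 269 ± 4.25, 206 ± 1.52 and 303 ± 2.95 CPM with GFP, DUX4 and DUXC.

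HNRNPA0, a gene without introns in mammals that lies inside KLHL3, had 121, 121 and 121 CPM with GFP, 144, 144 and 139.9 CPM with DUX4, and 85.8, 90.7 and 83.8 CPM with DUXC. It rose with DUX4 (0.24 ± 0.0328, adjusted p = 1.78e-08 in edgeR) and fell with DUXC (-0.48 ± 0.0336, adjusted p = 7.36e-18). The 3 groups did not overlap. Over the same groups KLHL3 had 1.16 ± 0.264, 1.01 ± 0.168 and 15.6 ± 0.302 CPM.

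HNRNPAB had 168, 166 and 168 CPM with GFP, 236, 240.5 and 221 CPM with DUX4, and 216, 233 and 227 CPM with DUXC. Both factors raised it above the controls, by 0.47 ± 0.0330 and 0.43 ± 0.0330 (adjusted p = 1.71e-17 and 2.46e-16 in edgeR), and they did not differ by the test (0.04 ± 0.0327, 95% interval -0.02 to 0.11, adjusted p = 0.201). The difference passed without DUX4 replicate 3 (0.0147) and with no filter on low counts (0.0122). PHYKPL, which overlaps HNRNPAB by 1756 bp, had 9.19 ± 0.260, 8.53 ± 0.536 and 8.63 ± 0.761 CPM with GFP, DUX4 and DUXC.

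HNRNPC, which binds uridine tracts and keeps cryptic exons silent, had 305, 306 and 308 CPM with GFP, 364, 353 and 352 CPM with DUX4, and 434, 439 and 436 CPM with DUXC. The groups did not overlap and DUXC was the highest. The rise was 0.22 ± 0.0288 with DUX4 and 0.51 ± 0.0288 with DUXC (adjusted p = 5.91e-09 and 2.52e-21 in edgeR).

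HNRNPDL, a paralogue of the mRNA decay factor HNRNPD, had 189, 199 and 182 CPM with GFP, 277, 267 and 254 CPM with DUX4, and 165, 162 and 166 CPM with DUXC. It rose with DUX4 (0.49 ± 0.0335, adjusted p = 1.72e-17 in edgeR) and fell with DUXC (-0.21 ± 0.0339, adjusted p = 4.92e-07). HNRNPD itself, 34620 bp away on chromosome 8, went from 137 ± 4.50 to 176 ± 4.73 CPM with DUX4 (0.36 ± 0.0324) and stood at 143 ± 2.72 CPM with DUXC, where it did not pass (0.06 ± 0.0327, adjusted p = 0.0874) except with DESeq2 size factors (0.000180), library size alone (3.03e-06), DESeq2 (0.000607) or only the 2 groups compared (0.000861).

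Among the other hnRNPs, 10 of 12 (83.3%) rose and 1 (8.33%) fell with DUX4, against 32.9% and 31.9% of all tested genes, and 4 (33.3%) rose and 8 (66.7%) fell with DUXC, against 40.2% and 42.3%. HNRNPM, which binds GU-rich RNA, had 227, 227 and 227 CPM with GFP, 331, 326 and 309 CPM with DUX4, and 241, 245 and 243 CPM with DUXC. Its DUX4 libraries were above the other 6. The rise with DUX4 was 0.50 ± 0.0305 (adjusted p = 9.88e-20 in edgeR), and the small one with DUXC, 0.09 ± 0.0306 (adjusted p = 0.00458, 1.57e-08 to 0.161 across alternatives), was lost with no filter on low counts.

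The F and H proteins, which bind runs of guanine, did not move as a block with DUXC. HNRNPH1 had 328, 345 and 320.5 CPM with GFP, 459.8, 439 and 426 CPM with DUX4, and 253, 251 and 275 CPM with DUXC. HNRNPH3 had 87.2, 88.1 and 85.3 CPM with GFP, 115, 116 and 119 CPM with DUX4, and 148, 149 and 151 CPM with DUXC. The span of HNRNPH3 overlaps PBLD by 1618 bp and RUFY2 by 1125 bp. PBLD had 11.3 ± 0.668, 12.4 ± 0.105 and 8.16 ± 0.301 CPM with GFP, DUX4 and DUXC. RUFY2 had 34.1 ± 2.00, 25.4 ± 1.08 and 23.8 ± 0.372 CPM. HNRNPF had 383, 389.7 and 387 CPM with GFP, 415, 413 and 408 CPM with DUX4, and 503, 506 and 512 CPM with DUXC. HNRNPH1 was highest with DUX4 and lowest with DUXC, while HNRNPH3 and HNRNPF were highest with DUXC. With DUXC the log2 fold changes were -0.35 ± 0.0349 for HNRNPH1, 0.78 ± 0.0323 for HNRNPH3 and 0.39 ± 0.0284 for HNRNPF (adjusted p = 9.43e-12, 9.73e-27 and 2.39e-17 in edgeR). With DUX4 HNRNPH1, HNRNPH3 and HNRNPF rose, by 0.41 ± 0.0346, 0.43 ± 0.0326 and 0.09 ± 0.0284. HNRNPH2 did not pass there (-0.05 ± 0.0352, adjusted p = 0.258 in edgeR). HNRNPH2, the X-linked copy, stood at 69.7 ± 2.03, 67.5 ± 0.415 and 74.9 ± 1.21 CPM with GFP, DUX4 and DUXC, and its call with DUXC (0.10 ± 0.0351, adjusted p = 0.00604, 1.50e-07 to 0.148 across alternatives) did not hold without GFP replicate 1 (0.0624) and with no filter on low counts (0.148).

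HNRNPL, which binds CA repeats, lies on chromosome 6 (47643561 to 47655856) and had 229, 217 and 221 CPM with GFP, 279.7, 282 and 284 CPM with DUX4, and 167, 166 and 159.6 CPM with DUXC. DUX4 gave the highest and DUXC the lowest levels, without overlap. HNRNPL rose with DUX4 (0.34 ± 0.0306, adjusted p = 8.58e-14 in edgeR) and fell with DUXC (-0.44 ± 0.0311, adjusted p = 1.27e-17). Its paralogue HNRNPLL was lower with both, going from 53.3 ± 1.59 CPM to 46.5 ± 1.86 with DUX4 (-0.20 ± 0.0408) and 43.7 ± 1.47 with DUXC (-0.29 ± 0.0412). For HNRNPLL the difference between the factors (0.09 ± 0.0415, adjusted p = 0.0437, 0.00313 to 0.820 across alternatives) did not hold without DUX4 replicate 1 (0.131), DUXC replicate 2 (0.207) or DUXC replicate 3 (0.0682), and under 4 other scalings or tools.

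HNRNPK, which binds cytosine-rich RNA and DNA, had 407, 403 and 387 CPM with GFP, 456, 452 and 456 CPM with DUX4, and 306, 305 and 314 CPM with DUXC. HNRNPR had 175, 178 and 173 CPM with GFP, 201, 189 and 187 CPM with DUX4, and 132, 131 and 139 CPM with DUXC. HNRNPUL1 had 217, 219 and 223 CPM with GFP, 273, 281 and 271 CPM with DUX4, and 189.7, 192 and 188 CPM with DUXC. In each of these the DUX4 libraries were the highest and the DUXC libraries the lowest of the 9. The differences between DUX4 and DUXC were 0.56 ± 0.0294, 0.52 ± 0.0329 and 0.53 ± 0.0301 (adjusted p = 1.18e-22, 1.44e-19 and 1.93e-21 in edgeR). The HNRNPU row, annotated as noncoding and overlapping the coding gene LOC100739755 by 2129 bp, and HNRNPUL2 followed the same order. Their differences between DUX4 and DUXC were smaller, at 0.32 ± 0.0306 and 0.37 ± 0.0305. With GFP, DUX4 and DUXC, HNRNPU stood at 434 ± 6.89, 491 ± 21.0 and 394 ± 7.42 CPM. HNRNPUL2 stood at 198 ± 0.501, 219 ± 0.526 and 170.1 ± 4.67 CPM. The fall of HNRNPU with DUXC was lost with DESeq2 size factors (adjusted p = 0.0590) and with library size alone (0.653).

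Of these genes 7 pairs lie within 1000000 bp of each other, and some pairs had changes of opposite sign with DUXC and others of the same sign. SRSF7 and HNRNPLL (144543 bp apart on chromosome 3) had log2 fold changes of 1.52 and -0.29 with DUXC, SRPK1 and SRSF3 (588158 bp apart on chromosome 7) of -0.10 and 1.59, and HNRNPH1 and CLK4 (757660 bp apart on chromosome 2) of -0.35 and 0.75. The value of SRPK1 turned to 0.02 with library size alone. SRSF10 and SRRM1 on chromosome 6 had -0.16 and 0.94, HNRNPR and SRSF10 on the same chromosome -0.39 and -0.16, CLK4 and HNRNPAB on chromosome 2 0.75 and 0.43, and HNRNPDL and HNRNPD on chromosome 8 -0.21 and 0.06, the last of which did not pass. Of the 28 genes whose span overlaps no other gene, 18 (64.3%) rose and 5 (17.9%) fell with DUX4, against 32.9% and 31.9% of all tested genes, and 15 (53.6%) rose and 11 (39.3%) fell with DUXC, against 40.2% and 42.3%.

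Other genes of the pathway were counted from lists chosen by function, to be read against the 32.9% of all tested genes that rose and 31.9% that fell with DUX4 and the 40.2% and 42.3% with DUXC. Early spliceosome genes rose with DUX4 in 13 of 16 and fell in SF3B1, with a median of 0.21, and with DUXC rose in 8 and fell in 4, with a median of 0.13. Among them SF1, which recognises the branch point, rose with DUXC by 2.07 ± 0.0371 (adjusted p = 3.97e-37 in edgeR) and SNRPA, a protein of the U1 particle, by 1.35 ± 0.0497. Sm and tri-snRNP genes rose with DUX4 in 13 of 15 and fell in SNRPD2, with a median of 0.25, and with DUXC rose in 5 and fell in 5. The largest fall there was that of SNRPD3, at -0.72 ± 0.0358.

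Proteins of the hnRNP class under other symbols were also examined. PTBP1, PCBP1, PCBP2, SYNCRIP, RBMX and RALY were higher with DUX4, by 0.23 to 0.48, and PTBP1, PCBP1, PCBP2 and RALY were lower with DUXC. PTBP1, the repressor of neuronal and muscle exons, rose by 0.35 ± 0.0296 with DUX4 and fell by 0.39 with DUXC, and differed between the factors by 0.74 ± 0.0299 (adjusted p = 2.78e-27 in edgeR). RBMX rose with both factors, by 0.48 ± 0.0331 with DUX4 and 0.91 ± 0.0330 with DUXC.

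Of 29 tested genes of other splicing regulators, 14 rose and 4 fell with DUX4 and 15 rose and 9 fell with DUXC, where 82.8% changed, against 82.5% of all tested genes. The extremes with DUXC were genes of low level: ESRP2, an epithelial splicing factor, rose by 3.69 ± 0.303, from 0.143 ± 0.0791 to 1.88 ± 0.115 CPM, its paralogue ESRP1 changed by -1.51 ± 0.123, from 5.75 ± 0.837 to 2.01 ± 0.201 CPM, and RBM20, a regulator of titin splicing, rose by 2.79 ± 0.185, from 0.556 ± 0.0972 to 3.86 ± 0.476 CPM. SFPQ, a paraspeckle protein, rose by 1.61 ± 0.0305, RBM25 by 1.42 ± 0.0335 and RBM4 by 1.39 ± 0.0360 with DUXC, against 0.33 ± 0.0302, 0.26 ± 0.0339 and 0.14 ± 0.0375 with DUX4. QKI, which regulates muscle splicing, rose by 0.27 ± 0.0312 with DUX4 and fell by 0.45 with DUXC. RBFOX1 did not pass the filter on low counts.

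With DUXC, SR-related proteins, further kinases and importins held changes larger than any among the 42 genes. Against GFP, none of them changed with DUX4 by more than the 1.06 of SRSF2. With DUX4 12 of 22 rose and NKTR fell, with a median of 0.12, and with DUXC 13 rose and 8 fell, with a median of 0.28. RSRP1, a protein rich in arginine and serine, rose by 3.84 ± 0.0531 with DUXC (adjusted p = 4.87e-22 in edgeR) and by 0.95 ± 0.0536 with DUX4. RSRC2, of the same composition, rose by 2.44 ± 0.0409 with DUXC and did not pass with DUX4 (0.05 ± 0.0416, adjusted p = 0.319 in edgeR). SON, a core of nuclear speckles, rose by 0.98 ± 0.0292 with DUXC and did not pass with DUX4 (0.05 ± 0.0291, adjusted p = 0.0976 in edgeR). TNPO3, the importin of SR proteins, rose by 0.26 ± 0.0306 with DUX4 and fell by 0.17 with DUXC, and TNPO1, the importin of HNRNPA1, rose by 0.25 ± 0.0313 with DUX4 and 0.78 ± 0.0312 with DUXC.

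**Figure D4:**
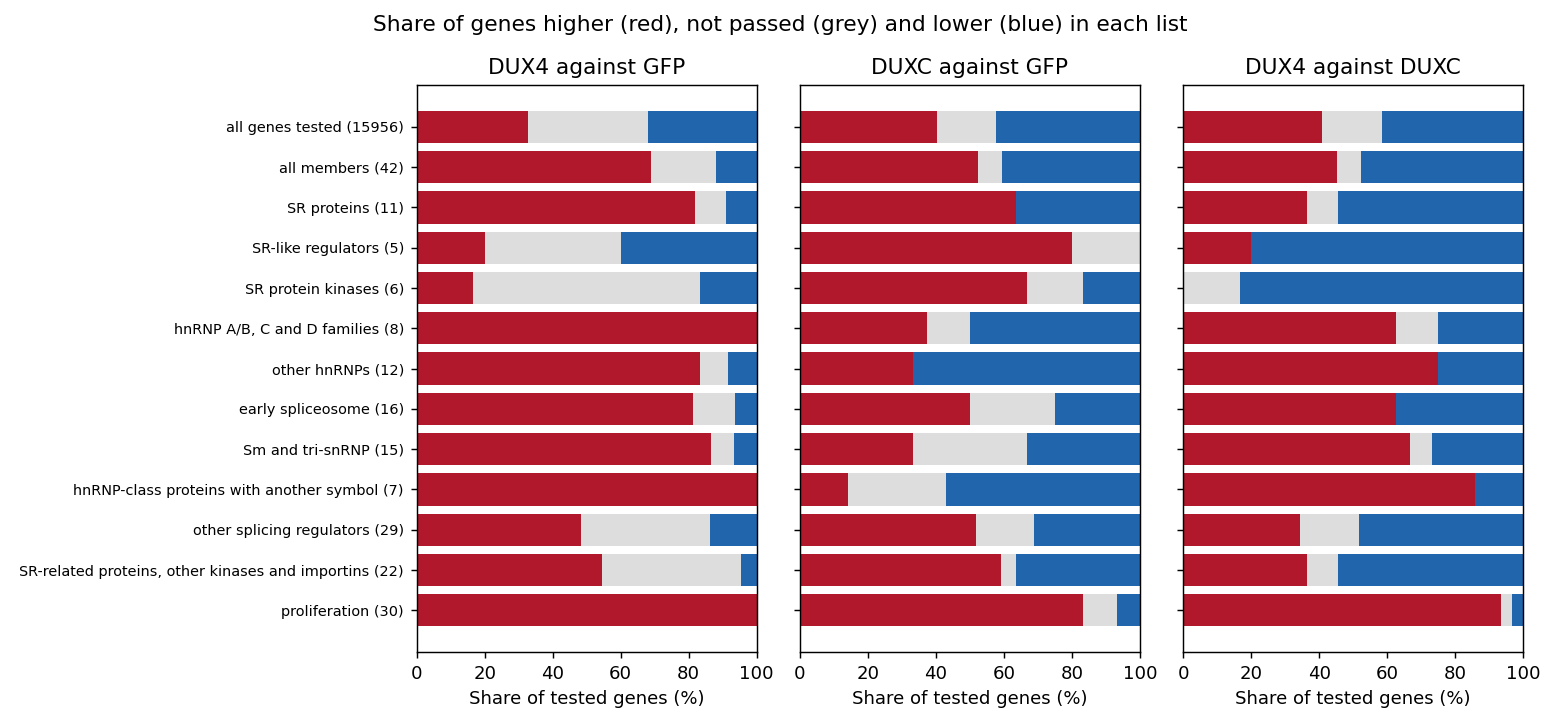
Share of tested genes (x axis, percent) that were higher (red), did not pass (grey) or were lower (blue) in each comparison, for all tested genes, for the 42 genes and their classes and for the other lists, with the number tested in parentheses. The hnRNP classes are mostly red with DUX4 and more blue than red with DUXC, and the kinases and SR-like regulators are mostly red with DUXC and not with DUX4.

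Proliferation genes, which mark dividing cells, changed in the same libraries. All 30 rose with DUX4, against 32.9% of all tested genes, with a median of 2.71. With DUXC 25 rose and 2 fell (83.3% and 6.67%, against 40.2% and 42.3%), with a median of 0.73. The summed level of these genes was 637 to 657 CPM per library with GFP, 2553 to 2725 under DUX4 and 1012 to 1064 under DUXC. Their part in the levels of the splicing regulators was not tested. Markers of fibroblasts and matrix fell in 7 of 7 with DUX4, against 31.9% of all tested genes, and in 6 of 7 with DUXC, against 42.3%. PDGFRA rose with DUXC (1.31 ± 0.0349), from 373 ± 5.66 to 926 ± 12.9 CPM. Their summed level was 49859.7 to 52984 CPM with GFP, 28997 to 32728 under DUX4 and 25605 to 25627 under DUXC. It consists mostly of COL1A1, COL1A2 and COL3A1, at 16746 ± 726, 19246 ± 554 and 12264 ± 258 CPM with GFP. The summed level of smooth muscle markers was 1861 to 1991 CPM with GFP, 541 to 584 under DUX4 and 397 to 422 under DUXC. That sum follows ACTA2, at 1663 ± 55.4, 227 ± 10.8 and 355 ± 11.8 CPM: of 5 smooth muscle and pericyte genes 3 fell and CSPG4 rose (0.80 ± 0.0339) with DUX4, and 4 fell and RGS5 rose (2.38 ± 0.450) with DUXC. Endothelial markers summed to 5.62 to 6.70 CPM with GFP, 9.71 to 10.4 under DUX4 and 24.2 to 26.5 under DUXC. With DUXC this was PECAM1 (24.7 ± 1.27 CPM), with KDR at 0.413 and CDH5 at 0.0940 CPM. Adipocyte markers summed to 1.49 to 1.62 CPM under DUX4 and 8.65 to 9.30 under DUXC. There FABP4 had 8.84 ± 0.403 CPM, and ADIPOQ and PLIN1 had 0.0499 and 0.0249 CPM. The part of any of these lists in the results was not tested.

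The genes whose pattern over the 9 libraries was most like that of SRSF3 were sought among 8163 genes of at least 10 CPM in every group. The 5 highest Pearson correlations of log2 CPM, between 0.9994 and 0.9998, were those of CTR9, FBXO33, ILF2, ABHD5 and SLC30A1. The 9 libraries form 3 tight groups, so that these values describe the order and spacing of 3 group means. CTR9, a subunit of the PAF1 elongation complex, went from 39.8 ± 0.738 CPM with GFP to 100.2 ± 1.08 under DUX4 and 815 ± 23.4 under DUXC, and ILF2, an RNA-binding nuclear factor, from 184 ± 2.47 to 267 ± 6.80 and 580.4 ± 15.4 CPM.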

How the data were processed

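Poly(A) RNA of 9 libraries, 3 per group, was prepared with a stranded mRNA kit, per the labels' protocols. The deposited table holds raw read counts per gene for 27339 genes. The submitters' processing notes name CASAVA 1.9, Trim Galore, featureCounts and the build Sscrofa11.1; the sources used here do not give the strand setting or the handling of multi-mapped reads. From these counts, genes were filtered by group with filterByExpr, which left 15956, scaled by TMM and fitted over all 9 libraries with the robust quasi-likelihood test of edgeR 4.0.16 (R 4.3.3). P-values were adjusted by Benjamini-Hochberg over all genes tested, with a threshold of 0.05. CPM were computed on TMM-adjusted library sizes, and gene positions came from RefSeq annotation of the same build. Total counts were 36580573 to 44420895. The spread within groups that edgeR fitted over all genes (common dispersion 0.00114) corresponds to a coefficient of variation of 3.38% beyond counting noise. Single genes can vary by more or less.

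The gene rule, classes and lists were chosen with earlier results of these data known. Values in every library are given for SRSF1, SRSF3 and, in each comparison and class, up to 4 genes with the largest called changes, a level of 1 CPM or more in the higher group, and libraries without overlap. Alternatives were DESeq2 size factors, library size alone, no filter, DESeq2 1.42.0, limma-voom (limma 3.58.1), only the 2 groups compared, a replicate block and leaving out each library. The fit was tested on simulated data with equal numbers of rises and falls and the same dispersion for every gene. That setting checks the code and not the scaling or error rates in these data. Replicate numbers are shared between groups, and the labels do not say that they pair libraries. Correlations of same-numbered libraries' deviations were -0.0258 to 0.0318, which cannot show whether those libraries were handled together. One gene of the other lists is not reported here.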

Additional observations from a re-analysis of the deposited data

How the results depend on the processing

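Every gene whose log2 fold change was at least 0.25 in size (16 with DUX4 and 29 with DUXC against GFP, and 33 between the factors, a bound chosen after the values were seen) kept its direction and its side of the threshold under all 16 alternatives. Some smaller changes also kept both, and others depended on the scaling, the filter, the tool or a library left out. Of all 42 genes, 33 with DUX4, 33 with DUXC and 36 between the factors kept both under all 16 alternatives. Library size alone moved the median of all genes by 0.12 for DUXC against GFP and by -0.10 for DUX4 against DUXC, and the median of the 42 genes relative to that of all genes stayed at 0.13 and at 0.05 to 0.06. With a replicate block the genes that passed were 29 higher and 5 lower with DUX4, 22 and 17 with DUXC, and 19 and 20 between the factors. These were the same counts as without it. The labels do not say whether the numbers pair the libraries, so that this is a check of the model only. DESeq2 called 3 genes lower with DUX4 in place of 5. Leaving out 1 library gave 31 to 35 changed genes with DUX4 (27 to 29 higher, 3 to 6 lower), 37 to 39 with DUXC (21 to 22 higher, 16 to 17 lower) and 38 to 40 between the factors (18 to 21 higher, 19 to 20 lower). The low count of 3 came without DUX4 replicate 2 or GFP replicate 2.

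Directions turned only for log2 fold changes of at most 0.10 in size, and the cause was not tested. Some of these had passed in the main fit of edgeR. They were SRPK1 with DUXC (-0.10, adjusted p = 0.00393) and, between the factors, SRRM2 (0.08, adjusted p = 0.0103) and HNRNPLL (0.09, adjusted p = 0.0437). SRRM1 with DUX4 was -0.01 without GFP replicate 3. With DUXC, SRPK1 was 0.02 with library size alone, SRPK2 was -0.02 with no filter, and SRRM2 was 0.04 with DESeq2 size factors, 0.09 with library size alone, 0.03 with DESeq2 and 0.02 with only the 2 groups compared. Between the factors, library size alone gave -0.06 for HNRNPAB, -0.01 for HNRNPLL, -0.05 for SRPK1, -0.02 for SRRM2 and -0.05 for SRSF6, and DESeq2 size factors gave -0.01 for HNRNPAB and -0.00 for SRPK1.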
